A study of Mus musculus with 6 samples.

Results

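Livers of 2 Post-T mice, kept on a Western diet (WD) for 48 weeks, were compared with livers of 2 Ctrl mice, kept on standard chow for 40 weeks, by single nuclei RNA sequencing. These 4 libraries, 1 library per mouse, were chosen by their labels out of 6, and 25759 of the 39012 nuclei kept over all libraries belonged to them. All mice were males of the DIAMOND line, a cross labelled 129A1/SvIm and C57BL/6J that develops fatty liver disease and then hepatocellular carcinoma (HCC) on this diet, and all started their diet at 2 months of age. The WD combined a high-fat food with sugar water, while Ctrl mice received chow and regular water. The 2 Pre-T mice, on the WD for 40 weeks and sampled before tumors had formed, entered the statistical model and are given beside some genes below as values only, since they share the Ctrl mice. Post-T mice were also 8 weeks longer on their diet than Ctrl mice. The Post-T mice had developed HCC by the time they were sampled. Diet, age and the presence of tumors therefore cannot be told apart, and the groups were not randomised and lived in different cages. The titles of both Post-T libraries call the tissue tumor while their source is given as liver, so that whether tumor nodules, surrounding liver or both were sampled is not known.

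In healthy liver, hepatocytes divide their work along the axis from the portal vein to the central vein. Periportal hepatocytes break down amino acids, make urea and glucose and secrete much of the plasma protein, whereas pericentral hepatocytes, which respond to Wnt signals, capture the remaining ammonia as glutamine and carry many of the cytochrome P450 enzymes. On a long-term diet rich in fat and sugar the mouse liver stores triglycerides, recruits macrophages and can develop tumors.

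The kept nuclei numbered 7231 and 7772 in the Ctrl libraries and 5433 and 5323 in the Post-T libraries, with 19415498 to 24847537 unique molecular identifiers (UMIs, counted transcripts) per library. A nucleus was kept with more than 200 and under 5000 genes detected and under 5% of its UMIs from mitochondrial genes. The median nucleus held 2303 and 1820 UMIs in Ctrl and 2017 and 1792 UMIs in Post-T mice. Barcodes with 5% or more mitochondrial UMIs made up 0.583% and 0.221% in Ctrl and 6.37% and 4.19% in Post-T libraries, and with all barcodes kept 467 of the 483 genes called below were still called. *Malat1*, an RNA that stays in the nucleus, was at 36202 and 34122 against 29595 and 14297 CPM, and the 10 genes of nuclear and cytoplasmic RNA summed to 41645 and 38098 CPM in Ctrl and 33084 and 18504 CPM in Post-T mice, whose part in the results was not tested. Without *Malat1* that sum overlapped, at 5443 and 3976 against 3489 and 4207 CPM. Between 9 and 18 barcodes were shared by any 2 of the 4 libraries. Of the 10 hepatocyte markers, headed by albumin (*Alb*), all were detected in all 4 livers. After every nucleus was thinned to 500 UMIs, *Alb* was found in 96.9, 94.4, 81.1 and 95.9% of nuclei in Ctrl 1, Ctrl 2, Post-T 1 and Post-T 2, and in 95.9, 92.8, 84.3 and 94.3% of their 633, 845, 624 and 1192 nuclei rich in endothelial markers, which are not expected to make it. A UMI in a nucleus does not by itself show which cell made it, and UMIs were summed over each library. Fewer cells of a type and less RNA per cell cannot be told apart in such sums. Levels are in CPM, a gene's UMIs after each library is scaled to a sum of 1000000. They allow for the depth of a library but not for its composition, and are not comparable between genes. Each pair of values gives replicates 1 and 2, with Ctrl before Post-T where a level is written as one pair against another. Values in parentheses after a level are log2 fold changes of Post-T over Ctrl with their SE, and a range gives the lowest and highest log2 fold change over 14 alternative analyses. Among the 23 genes named for the largest changes, leaving out 1 mouse moved the fold by more than 1.5 times in all but *Scara5*. Shares of nuclei are given after thinning with 95% exact binomial intervals, which like the limits for a count of 0 cover counting error only.

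Of 21790 genes tested, both Post-T mice lay above both Ctrl mice in 4218 (19.4%) and below them in 7352 (33.7%), together 53.1%. All counts of list members below, also those of cell type markers, are to be read beside these shares. With the library sums corrected by TMM, an estimate of composition, 5896 lay above and 6550 below, so that the share of higher genes among those without overlap was 36.5% on CPM and 47.4% after correction. With edgeR's quasi-likelihood test, 144 genes (0.661%) rose and 339 (1.56%) fell in Post-T mice at an adjusted p under 0.05, together 483 genes (2.22%), and in all 483 the 2 groups did not overlap. Without TMM the median log2 fold change of all genes was -0.13 in place of 0.004, and 142 genes rose and 472 fell. A further test, DESeq2, called 1526 higher and 1692 lower, including all 483. These calls rested on both Ctrl mice and on the Pre-T mice that shared the estimate of the spread. Without Ctrl 1 or without Ctrl 2 no gene passed edgeR's threshold (2864 and 3192 genes at an unadjusted p under 0.05), and with the 4 libraries alone none did either (4461 genes). The count was 15 higher and 15 lower without Pre-T 1, 25 and 32 without Pre-T 2, 645 and 1006 without Post-T 1, and 762 and 830 without Post-T 2. The smallest p that an exact permutation test of 2 mice against 2 allows is 0.333. In the last genes inside the threshold, *C6* and *Sema3b*, the adjusted p was 0.0497 and 0.0499, while *Orai1* and *Spsb2* lay just outside it.

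**Figure D1:**
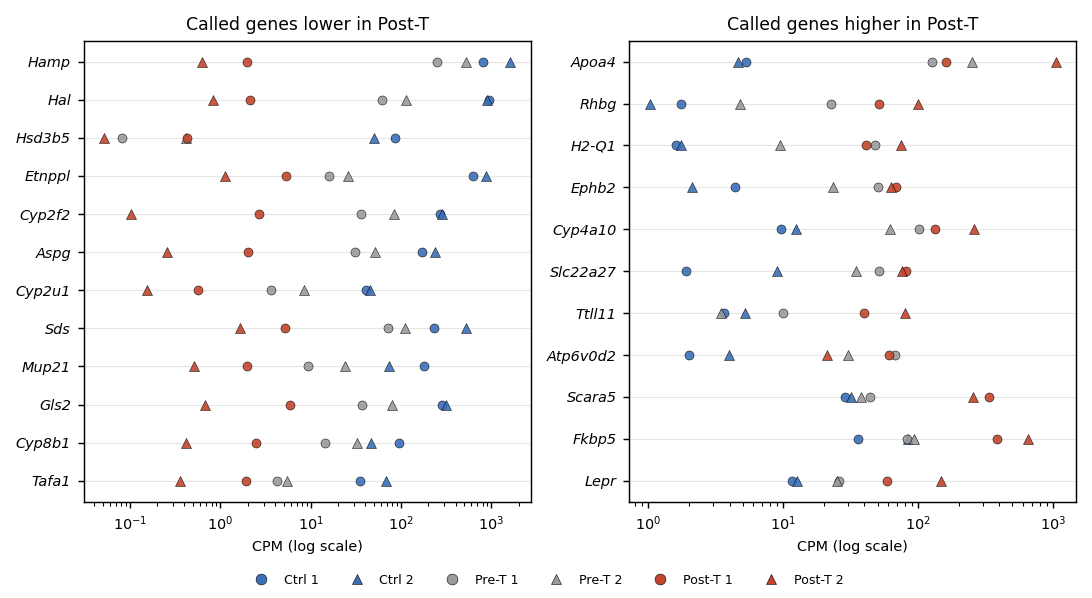
CPM on a log scale (x axis) of the 12 genes that fell most and 11 of the 12 that rose most in Post-T mice among called genes with a mean of at least 20 CPM (y axis), with 1 point per mouse, circles for replicate 1 and triangles for replicate 2 of Ctrl (blue), Pre-T (grey) and Post-T (red). In every row the 2 red points lie apart from the 2 blue points, from *Hamp* at 811 and 1622 CPM in Ctrl and 1.99 and 0.618 CPM in Post-T mice to *Apoa4* at 5.27 and 4.65 against 161 and 1052 CPM.

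Among called genes with a mean of at least 20 CPM, the largest change was that of hepcidin (*Hamp*, chromosome 7, 30942368 to 30944032, minus strand), the hormone by which hepatocytes limit iron uptake from the gut and iron release from macrophages. *Hamp* stood at 811 and 1622 CPM in Ctrl mice, at 249 and 524 CPM in Pre-T mice and at 1.99 and 0.618 CPM in Post-T mice, which is 20141 and 39733 UMIs against 42 and 12. The log2 fold change was -9.75 ± 0.83, range -10.69 to -9.25 (adjusted p = 0.0244). Its neighbouring paralog *Hamp2* fell as well, from 5.35 and 6.08 CPM to 0.0947 and 0.0515 CPM (-6.06 ± 0.93, adjusted p = 0.0407), and the 2 genes are alike enough that reads may be split between them. *Hamp* was found in 23.9% (22.9 to 24.9) and 37.4% (36.3 to 38.5) of nuclei in Ctrl and 0.0552% (0.0114 to 0.161) and 0.0376% (0.00455 to 0.136) in Post-T mice, or without thinning in 57.8 and 65.6% and 0.184 and 0.113%. In endothelial-marker nuclei it was found in 13.6% (11.01 to 16.5) and 24.1% (21.3 to 27.2) in Ctrl mice, in 0 of 624 in Post-T 1, which allows a share of up to 0.481%, and in 0.0839% (0.00212 to 0.467) in Post-T 2. *Scara5*, a scavenger receptor that takes up ferritin, rose from 28.7 and 31.97 CPM to 337 and 255 CPM, with Pre-T mice at 44.2 and 37.4 CPM (3.42 ± 0.22, range 3.29 to 3.47, adjusted p = 0.016). The mice of each group lay close to each other here.

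Hepcidin transcription is driven by BMP signals and, in inflammation, by STAT3. The 250 bases before the RefSeq start of *Hamp* (GRCm38.p6, chr7:30944030-30944279, minus strand) are shown because this gene fell most, with the motif TTCNNNGAA, the core of STAT sites, in capitals.

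Hamp: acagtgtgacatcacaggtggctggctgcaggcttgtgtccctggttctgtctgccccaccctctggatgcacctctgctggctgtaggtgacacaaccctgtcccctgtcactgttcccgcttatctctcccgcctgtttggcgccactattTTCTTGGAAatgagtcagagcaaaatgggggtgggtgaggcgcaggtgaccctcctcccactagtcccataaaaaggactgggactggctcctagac

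The match spans bases 97 to 89 before the start, and 7.02% of 32851 RefSeq promoter windows of this length hold the motif on either strand. The motif is a palindrome, so both strands give the same match.

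Most genes of periportal hepatocytes were far lower in the Post-T livers. Of 10 periportal markers, 8 lay below both Ctrl mice in both Post-T mice, none lay above, and 6 fell, with a median log2 fold change of -5.02 beside 0.004 over all genes tested. *Hal*, the histidine ammonia-lyase that opens histidine breakdown, stood at 931 and 895 CPM in Ctrl and 2.13 and 0.824 CPM in Post-T mice, or 23124 and 21912 UMIs against 45 and 16 (-9.17 ± 0.62, range -9.89 to -8.75, adjusted p = 0.016). Its UMIs were found in 25.8% (24.8 to 26.8) and 24.3% (23.3 to 25.2) of nuclei in Ctrl mice, in 0.221% (0.114 to 0.386) in Post-T 1 and in 0 of 5323 nuclei in Post-T 2, which allows a share of up to 0.0564%. Without thinning these shares were 55.9 and 46.4% in Ctrl and 0.699 and 0.188% in Post-T mice. Endothelial-marker nuclei held *Hal* UMIs in 14.7% (12.03 to 17.7) and 11.95% (9.84 to 14.3) in Ctrl mice as well. *Etnppl*, which degrades phosphoethanolamine, fell from 629.9 and 873 CPM to 5.26 and 1.13 CPM (-7.80 ± 0.78, range -9.14 to -7.16, adjusted p = 0.0252). *Cyp2f2*, a P450 enzyme used as a periportal marker, was at 273 and 285 CPM in Ctrl and at 2.699 and 0.103 CPM in Post-T mice (-7.58 ± 1.20, range -11.12 to -6.70, adjusted p = 0.0437), and Post-T 2 had only 2 UMIs of it. The serine dehydratase *Sds* fell from 229.6 and 518 to 5.16 and 1.65 CPM (-6.68 ± 0.69, range -7.57 to -6.06, adjusted p = 0.0266). The liver glutaminase *Gls2*, which releases ammonia for urea synthesis, fell from 282 and 312 to 5.97 and 0.67 CPM (-6.44 ± 0.99, range -8.56 to -5.65, adjusted p = 0.0414). The lipid droplet protein gene *Hsd17b13* fell from 198 and 319.7 to 25.2 and 13.9 CPM (-3.61 ± 0.39, range -3.98 to -3.29, adjusted p = 0.027). In all of these genes Post-T 2 was the lowest of the 4 mice. *Pigr* and *Ctsc* overlapped between the groups, with *Ctsc* at 56.9 and 64.1 against 63.2 and 27.3 CPM.

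Hal: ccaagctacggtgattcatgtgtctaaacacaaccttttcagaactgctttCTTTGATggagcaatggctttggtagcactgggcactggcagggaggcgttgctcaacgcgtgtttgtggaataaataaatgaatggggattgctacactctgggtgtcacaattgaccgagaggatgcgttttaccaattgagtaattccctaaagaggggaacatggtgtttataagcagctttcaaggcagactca

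The window of *Hal* above (GRCm38.p6, chr10:93488518-93488767, plus strand) is the promoter of the periportal gene with the largest drop. Capitals mark CTTTGAT, the core bound by TCF/LEF factors of the Wnt pathway, 199 to 193 bases before the start, and 3.21% of all windows hold it on either strand. A match in letters does not show binding.

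**Figure D2:**
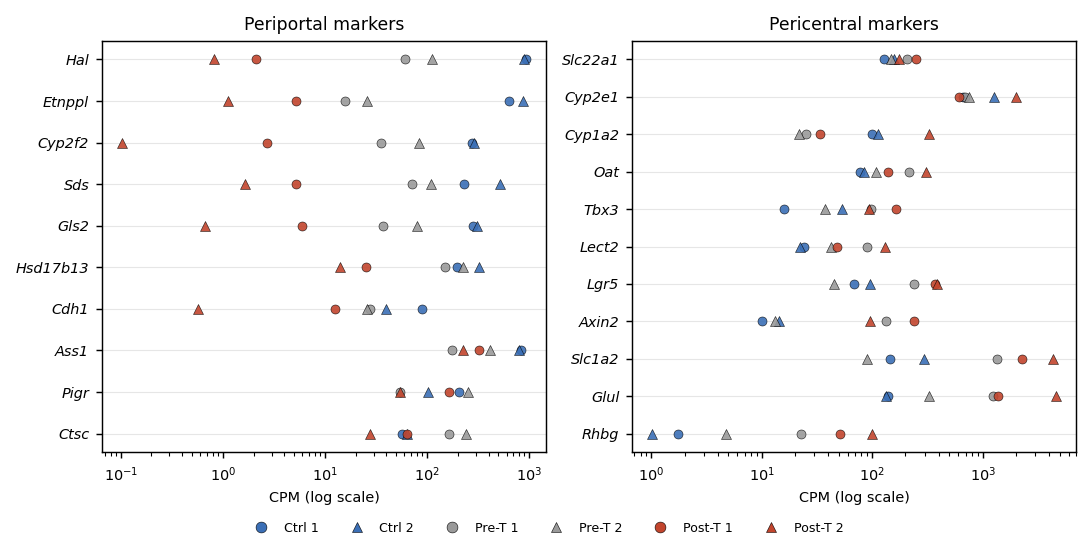
CPM on a log scale (x axis) of the 10 periportal and 11 pericentral hepatocyte markers (y axis), with 1 point per mouse and the same colours and shapes as for the called genes. Post-T mice (red) lie to the left of Ctrl mice (blue) in 8 periportal genes and to the right of them in 9 pericentral genes, with *Cyp2e1* and *Cyp1a2* overlapping.

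Pericentral markers lay on the other side. Of 11, 9 were above both Ctrl mice in both Post-T mice and none was below, with a median log2 fold change of 2.15. Only the ammonium transporter *Rhbg* passed the test with edgeR, while 9 had an unadjusted p under 0.05 and DESeq2 called 8 higher. *Rhbg* rose from 1.73 and 1.02 CPM to 51.2 and 100 CPM, with 22.7 and 4.74 CPM in Pre-T mice (5.95 ± 0.95, range 5.19 to 6.45, adjusted p = 0.0437). *Glul*, glutamine synthetase and the classical marker of hepatocytes around the central vein, was at 138 and 134 CPM in Ctrl and 1371 and 4637 CPM in Post-T mice, with 1239 and 326 CPM in Pre-T mice (4.68 ± 0.96, adjusted p = 0.0646). It was found in 4.23% (3.78 to 4.72) and 3.81% (3.39 to 4.26) of nuclei in Ctrl mice and in 40.3% (39.02 to 41.6) and 81.5% (80.5 to 82.6) in Post-T mice, or without thinning in 12.9 and 9.91% and 72.6 and 98.7%. The thinned shares in endothelial-marker nuclei were 4.42% (2.96 to 6.33) and 2.72% (1.73 to 4.06) in Ctrl and 28.2% (24.7 to 31.9) and 65.9% (63.1 to 68.5) in Post-T mice. The glutamate transporter *Slc1a2* was at 146 and 296 against 2258 and 4309 CPM (4.10 ± 1.26, adjusted p = 0.125). Of the Wnt targets, *Axin2*, which feeds back on the pathway, was at 10.1 and 14.3 against 238 and 95.2 CPM (3.86 ± 1.05, adjusted p = 0.104). *Lgr5*, the receptor that amplifies Wnt signals, was at 67.9 and 96.1 against 369.8 and 384 CPM (2.36 ± 0.73, adjusted p = 0.126). *Cyp2e1* and *Cyp1a2*, the alcohol- and dioxin-inducible P450 enzymes, overlapped, *Cyp1a2* at 101 and 112 against 33.7 and 329 CPM. Summed over the list, pericentral markers came to 1369 and 2240 CPM in Ctrl, 5530 and 12569 CPM in Post-T mice, and periportal markers to 3738 and 4205 against 607 and 324 CPM. The marker list of hepatocytes as a whole summed to 27284 and 20863 CPM in Ctrl and 8659 and 17211 CPM in Post-T mice, with 6 of 10 below both Ctrl mice and no edgeR call (3 lower at an unadjusted p under 0.05 and by DESeq2), and its part in these differences was not tested.

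Genes of amino acid breakdown beyond the periportal markers were lower as well. Of 24 genes of the urea cycle and amino acid catabolism, 19 lay below and 3 above both Ctrl mice, 7 fell and none rose with edgeR (3 higher at an unadjusted p under 0.05, 2 higher by DESeq2), and the median log2 fold change was -2.21. Of these 24 genes, *Hal*, *Sds*, *Gls2* and *Ass1* are also periportal markers and are part of these counts. The calls beyond the periportal markers were *Otc*, *Tat*, *Tdo2* and *Got1*. *Otc*, which joins ornithine and carbamoyl phosphate in the urea cycle, fell from 389 and 366 to 44.4 and 49.3 CPM (-2.86 ± 0.47, range -3.10 to -2.72, adjusted p = 0.045). *Tat*, which starts tyrosine breakdown, fell from 1422 and 1633 to 209.8 and 289 CPM (-2.44 ± 0.36, adjusted p = 0.0381), and *Tdo2*, which starts that of tryptophan, from 1301 and 1277 to 245 and 232 CPM (-2.29 ± 0.30, adjusted p = 0.0357). *Cps1*, the entry enzyme of the urea cycle, was at 3752 and 4255 CPM in Ctrl and 817 and 835 CPM in Post-T mice and missed the threshold (-2.13 ± 0.39, adjusted p = 0.0529). *Arg1*, its last enzyme, was at 1104 and 1519 CPM in Ctrl and 89.7 and 8.81 CPM in Post-T mice, with Post-T 2 far below Post-T 1 (-4.71 ± 1.01, adjusted p = 0.0702). The 3 genes above both Ctrl mice were *Glul*, *Oat* and *Nags*, the first 2 of them also pericentral markers. *Aspg*, an asparaginase outside the list, fell from 172 and 239 to 2.04 and 0.258 CPM (-7.39 ± 0.85, range -9.38 to -6.65, adjusted p = 0.0296), and *Asns*, which makes asparagine, from 21.5 and 15.8 to 1.47 and 0.412 CPM (-4.22 ± 0.55, range -5.27 to -3.68, adjusted p = 0.0357).

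Several genes of bile acid synthesis and transport fell. Of 22 genes, 11 lay below and 2 above both Ctrl mice, and 5 fell (median log2 fold change -0.66). *Cyp8b1*, the sterol 12-alpha-hydroxylase that sets the share of cholic acid, fell from 95.3 and 46.1 CPM to 2.46 and 0.412 CPM, with 14.5 and 32.1 CPM in Pre-T mice (-5.56 ± 0.89, range -7.21 to -4.87, adjusted p = 0.0437). *Slc10a1*, the sodium-dependent uptake transporter NTCP, fell from 159 and 382 to 27.4 and 33.1 CPM (-2.98 ± 0.46, range -3.45 to -2.30, adjusted p = 0.0416). *Baat*, which conjugates bile acids with taurine, fell from 145 and 165 to 51.4 and 24.8 CPM (-1.93 ± 0.33, range -2.42 to -1.60, adjusted p = 0.0487), and *Abcc3*, an export pump to the blood, from 223 and 213 to 61.2 and 30.3 CPM (-2.16 ± 0.31, range -2.62 to -1.85, adjusted p = 0.0366). *Klb*, the co-receptor for FGF15, fell from 156 and 199.9 to 58.2 and 56.6 CPM (-1.48 ± 0.22, adjusted p = 0.0398). *Cyp7a1*, the rate-limiting enzyme of the classical pathway, lay above both Ctrl mice at 58.2 and 92.9 against 159 and 250.3 CPM, but did not pass the test (1.63 ± 0.60, adjusted p = 0.166), and the canalicular pump *Abcb11* overlapped.

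Cyp8b1: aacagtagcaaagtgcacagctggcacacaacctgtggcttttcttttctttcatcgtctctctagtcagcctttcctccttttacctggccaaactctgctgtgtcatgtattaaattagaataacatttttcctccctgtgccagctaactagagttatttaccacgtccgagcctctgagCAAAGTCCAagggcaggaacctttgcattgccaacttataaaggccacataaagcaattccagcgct

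The promoter of *Cyp8b1* (GRCm38.p6, chr9:121916306-121916555, minus strand) is shown for the bile acid gene with the largest drop. Capitals mark CAAAGTCCA, a site of the hepatocyte factor HNF4, 67 to 59 bases before the start, which 0.384% of all windows hold on either strand. Of the 23 genes named for the largest changes, 14 had a window in the table, and each of the 3 motifs was found in 1 of them. *Hnf4a* itself was at 285 and 345 CPM in Ctrl and 239 and 348 CPM in Post-T mice and overlapped between the groups.

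Genes that male mice express more than female mice, under the pulsatile growth hormone of males, lay lower as a list. Of 23, 21 were below both Ctrl mice in both Post-T mice and none was above, 4 fell, and 17 had a lower level at an unadjusted p under 0.05 (median log2 fold change -4.39, the same with *Mup7*, which is at 0 in Post-T, set to its bound). *Hsd3b5*, a male-specific steroid dehydrogenase, fell from 84.5 and 50.5 CPM to 0.426 and 0.0515 CPM, which is 2100 and 1236 UMIs against 9 and 1 (-8.00 ± 0.88, range -10.03 to -7.32, adjusted p = 0.0281). *Mup21*, a major urinary protein that carries pheromones, fell from 179.8 and 74.2 to 1.99 and 0.515 CPM (-6.60 ± 0.90, range -7.74 to -5.75, adjusted p = 0.0361). *Mup3* was at 1757 and 746 CPM in Ctrl and 33.4 and 0.412 CPM in Post-T mice, and *Mup7* at 178 and 11.4 CPM and at 0 UMIs in both Post-T mice, but the Mup genes are near-identical copies and their reads may be split, so that single members are uncertain. *Cyp2d9* fell from 439.8 and 285 to 25.6 and 10.3 CPM (-4.26 ± 0.48, range -4.93 to -3.85, adjusted p = 0.0281) and *C6*, a complement component, from 530.2 and 512 to 199.7 and 137 CPM (-1.51 ± 0.26, range -1.70 to -1.40, adjusted p = 0.0497). *Ghr*, the growth hormone receptor, was at 5705 and 5390.4 CPM in Ctrl and 1490.1 and 2271 CPM in Post-T mice and missed the threshold (-1.39 ± 0.42, adjusted p = 0.123). Without Post-T 1 the median of the list was -7.74 and without Post-T 2 it was -3.68. Of 22 tested genes biased to females, 8 lay above and 2 below both Ctrl mice, with a median of 1.28. None of them passed edgeR's threshold (8 higher and 1 lower at an unadjusted p under 0.05, 6 higher by DESeq2), among them *Fmo2* at 16.6 and 38.5 against 86.5 and 409.8 CPM (3.43 ± 0.88, range 1.66 to 4.14, adjusted p = 0.0944).

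*G6pc*, the last step of glucose release, fell from 1418 and 1789 CPM to 187 and 140.3 CPM (-3.16 ± 0.27, range -3.29 to -3.05, adjusted p = 0.0244), and it was the only call among 17 genes of glucose and glycogen metabolism, of which 8 lay below and 3 above both Ctrl mice (median -0.24). *Pck1*, the gluconeogenic carboxykinase, was at 1528 and 2274 against 349.9 and 634 CPM (-1.75 ± 0.46, range -2.44 to -1.35, adjusted p = 0.0971). Of 22 genes of fatty acid and triglyceride synthesis, 11 lay below and 4 above both Ctrl mice (median -0.34), and *Acly*, which makes cytosolic acetyl-CoA, fell from 323 and 209 to 39.2 and 39.8 CPM (-2.62 ± 0.34, range -2.95 to -2.21, adjusted p = 0.0357). *Acacb*, whose malonyl-CoA restrains fatty acid oxidation, lay above at 54.4 and 37.9 against 140 and 226 CPM (2.16 ± 0.40, range 1.58 to 2.50, adjusted p = 0.0531). Of 22 genes of cholesterol synthesis and uptake, 10 lay below and 1 above both Ctrl mice (median -1.31), and edgeR called none (9 lower at an unadjusted p under 0.05, 7 lower by DESeq2). In this list Ctrl 1 was well above Ctrl 2, with sums of 3973 and 1684 CPM against 963 and 1797 CPM in Post-T mice, so that the sums of the groups overlapped, and without Ctrl 1 the median was 0.14.

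Genes of lipid droplets and fatty acid uptake were higher in Post-T mice in 12 of 21 and lower in 4, without overlap, with a median of 1.23. Their summed level was lower, at 1439 and 1553 CPM in Ctrl and 1048 and 1307 CPM in Post-T mice, and overlapped without *Fabp1*, the fatty acid binding protein of hepatocytes, at 758 and 850.3 against 990.2 and 809.8 CPM. *Pparg*, the nuclear receptor of fat storage, rose from 57.2 and 56.7 CPM to 389 and 214 CPM (2.51 ± 0.27, range 2.13 to 2.76, adjusted p = 0.027) and *Fabp4*, a fatty acid carrier of adipocytes, capillaries and macrophages, from 7.04 and 7.96 to 30.4 and 51.1 CPM (2.62 ± 0.45, range 2.01 to 2.99, adjusted p = 0.0487). *Plin2*, the coat protein of hepatocyte droplets, lay below, at 264 and 157 in Ctrl and 102 and 87.97 CPM in Post-T mice (-1.03 ± 0.32, adjusted p = 0.129). Of the defining adipocyte markers, *Adipoq* and *Lep* were too low to be tested and *Plin1* did not exceed 0.122 CPM in the 4 mice. The adipocyte list summed to 1571 and 1501 CPM in Ctrl and 40.4 and 218 CPM in Post-T mice, nearly all of it *Car3*, a carbonic anhydrase that male hepatocytes also make, at 1516 and 1426 against 26.9 and 202 CPM. Among 24 genes of fatty acid oxidation, 7 lay above and 4 below both Ctrl mice (median 0.33, and -0.05 without Post-T 2), and *Cyp4a10*, an omega-hydroxylase induced by PPAR-alpha, rose from 9.54 and 12.4 CPM to 133 and 260.2 CPM (4.36 ± 0.52, range 3.60 to 4.80, adjusted p = 0.0317). Its relative *Cyp4a14* was at 8.49 and 40.9 against 182 and 339.8 CPM (3.62 ± 0.86, range 2.90 to 5.07, adjusted p = 0.0829), whereas the male-biased *Cyp4a12a* was at 118 and 90.1 against 21.9 and 0.412 CPM (-3.23 ± 1.37, range -7.75 to -2.27, adjusted p = 0.202). *Cpt1a*, the gate of mitochondrial oxidation, overlapped.

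Among called genes with a mean of at least 20 CPM, the largest rise was that of *Apoa4* (chromosome 9, 46240696 to 46243459, plus strand), an apolipoprotein of triglyceride-rich lipoproteins made by gut and liver. It stood at 5.27 and 4.65 CPM in Ctrl, 126 and 250.2 CPM in Pre-T and 161 and 1052 CPM in Post-T mice (7.18 ± 1.16, range 4.999 to 7.94, adjusted p = 0.0438). *Apoa4* UMIs were found in 0.235% (0.137 to 0.376) and 0.347% (0.229 to 0.505) of nuclei in Ctrl mice and in 11.9% (11.04 to 12.8) and 52.4% (51.02 to 53.7) in Post-T mice, or without thinning in 1.73 and 1.18% and 32.6 and 91.7%. In endothelial-marker nuclei the thinned shares were 0.474% (0.0978 to 1.38) and 0.355% (0.0733 to 1.03) in Ctrl and 12.2% (9.72 to 15.01) and 47.3% (44.4 to 50.2) in Post-T mice. Both Post-T mice were far above both Ctrl mice, and Post-T 2 was several times above Post-T 1, and the ends of the range are the analyses without Post-T 2 and without Post-T 1. *Lepr*, the leptin receptor, rose from 11.5 and 12.7 to 58.3 and 148 CPM (3.30 ± 0.54, range 2.26 to 3.83, adjusted p = 0.0454). *Fkbp5*, a co-chaperone of the glucocorticoid receptor, rose from 35.6 and 83.8 to 381 and 657 CPM (3.33 ± 0.53, range 2.68 to 3.99, adjusted p = 0.0438). *Ephb2*, a receptor tyrosine kinase for ephrin-B ligands, rose from 4.39 and 2.12 to 68.9 and 62.4 CPM (4.45 ± 0.55, range 3.98 to 5.14, adjusted p = 0.0335). *H2-Q1*, a class I-like MHC gene whose close paralogs make it uncertain, rose from 1.61 and 1.76 to 40.7 and 74.4 CPM (5.28 ± 0.89, range 4.58 to 5.69, adjusted p = 0.048). The organic anion transporter *Slc22a27* rose from 1.89 and 8.94 to 81.2 and 75.9 CPM (4.03 ± 0.69, range 3.33 to 5.45, adjusted p = 0.0497), and *Ttll11*, an enzyme that adds glutamates to tubulin, from 3.62 and 5.18 to 39.5 and 80.1 CPM (3.97 ± 0.67, range 3.16 to 4.42, adjusted p = 0.0482).

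Also among the 12 genes with the largest drops were an enzyme and a secreted protein. *Cyp2u1*, a fatty acid hydroxylase, fell from 40.6 and 45.3 to 0.568 and 0.155 CPM, with 3 UMIs in Post-T 2 (-6.76 ± 0.66, range -7.85 to -6.24, adjusted p = 0.0252), and *Tafa1*, a small secreted protein, from 34.8 and 67.2 to 1.94 and 0.361 CPM (-5.37 ± 0.71, range -6.88 to -4.71, adjusted p = 0.0357).

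Genes of lipid-associated macrophages, the phagocytes that gather around dying fat-laden cells, lay mostly higher. Of 21, 12 lay above and 2 below both Ctrl mice and 5 rose (median 1.23). *Gpnmb*, a lysosomal glycoprotein of these cells, rose from 0.443 and 0.327 CPM to 32.96 and 19.5 CPM, with 30.2 and 39.5 CPM in Pre-T mice (6.18 ± 0.38, range 5.86 to 6.47, adjusted p = 0.016). *Atp6v0d2*, a subunit of the vacuolar proton pump in macrophages, rose from 2.01 and 3.96 to 60.5 and 20.96 CPM (3.86 ± 0.63, range 3.05 to 4.35, adjusted p = 0.0456) and *Lgals3*, galectin-3, from 5.03 and 4.37 to 29.2 and 17.5 CPM (2.42 ± 0.32, range 2.11 to 2.62, adjusted p = 0.0357). The cholesterol exporter *Abcg1* rose from 11.6 and 15.2 to 39.7 and 39.5 CPM (1.71 ± 0.27, adjusted p = 0.0437). *Pparg*, the fifth, is also a gene of fat-laden hepatocytes. *Trem2*, the receptor that defines these cells, was at 0.241 and 0.408 against 4.45 and 1.18 CPM (3.17 ± 0.66, adjusted p = 0.0663), and *Lyz2* and *Tyrobp* overlapped. The summed level of the list overlapped as well, at 4845 and 2750.4 CPM in Ctrl and 2876 and 7285 CPM in Post-T mice. The member with the highest level, *Apoe*, was at 3971 and 1984 against 1302 and 6051 CPM. Without *Apoe* the sum was higher in Post-T mice, at 873 and 767 against 1574 and 1234 CPM. Markers of resident Kupffer cells lay lower in 6 of 8 (median -0.80), with sums of 163 and 187 CPM in Ctrl and 96.7 and 81.5 CPM in Post-T mice. *Clec4f*, the lectin that is particular to them in liver, fell from 53.1 and 57.3 to 5.16 and 2.16 CPM (-3.82 ± 0.56, adjusted p = 0.0374), and *Cd163*, the hemoglobin scavenger receptor of the macrophage list, from 7.003 and 15.9 to 0.284 and 0.361 CPM (-4.97 ± 0.55, adjusted p = 0.0281). Of the 10 macrophage markers 3 lay above, 1 below and 6 overlapped, with no call higher. They summed to 369 and 428 CPM in Ctrl and 564 and 618 CPM in Post-T mice. Without *Mertk*, the member with the highest level, the sums were 246 and 264 against 342 and 271 CPM, with Post-T 2 close to Ctrl mice.

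Lists of immune signals held members on both sides, beside shares of 19.4% above and 33.7% below over all genes tested. Of 23 tested interferon response genes, 11 lay above (47.8%) and 5 below (21.7%) both Ctrl mice. The single call was *Rtp4*, a chaperone induced by interferon, which fell from 81.9 and 82.3 to 34.5 and 24.1 CPM (-1.37 ± 0.20, range -1.55 to -1.26, adjusted p = 0.0374). *Usp18*, which removes ISG15 from proteins, was at 7.204 and 7.39 against 104 and 52.5 CPM (3.52 ± 0.61, range 3.07 to 3.82, adjusted p = 0.05003). Of 22 antigen presentation genes, 5 lay above and 6 below, shares close to those of all genes, with no edgeR call, no gene at an unadjusted p under 0.05 and none by DESeq2 (median 0.08, and -0.09 without TMM). Of 24 chemokines and receptors, 4 lay above (16.7%) and 5 below (20.8%), both smaller shares than over all genes. Their median was 0.73 (-0.70 without Post-T 1), and *Cxcl1*, a neutrophil attractant, fell from 27.4 and 43.5 to 7.53 and 3.66 CPM (-2.55 ± 0.35, range -3.04 to -2.23, adjusted p = 0.0362). The acute phase list held 7 genes above (28%) and 4 below (16%) both Ctrl mice of 25, with *Hamp* and *Hamp2* as the calls. Its median was 1.11, and -0.10 without Post-T 1. *Lcn2*, a siderophore-binding protein of inflamed liver, was at 0.402 and 0.408 CPM in Ctrl, 33.7 and 110.1 CPM in Pre-T and 103 and 6.49 CPM in Post-T mice (7.07 ± 1.48, range 4.21 to 7.97, adjusted p = 0.0675). *Saa1*, *Saa2* and *Orm2* were high in Post-T 1 and at or near Ctrl levels in Post-T 2, *Saa1* at 11.8 and 2.37 CPM in Ctrl and 70.2 and 1.91 CPM in Post-T mice.

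Of 28 cell cycle genes, 17 lay above and none below both Ctrl mice, with a median of 0.87. No member passed edgeR's threshold, while 12 were higher at an unadjusted p under 0.05 and 8 by DESeq2. *Mki67*, the proliferation antigen, was at 3.02 and 2.08 CPM in Ctrl, 12.8 and 14.5 CPM in Pre-T and 26.3 and 5.97 CPM in Post-T mice (2.70 ± 0.63, range 1.44 to 3.35, adjusted p = 0.0813), and *Top2a*, the topoisomerase of dividing cells, at 4.55 and 2.899 against 18.1 and 5.41 CPM. Among 20 p53 and senescence genes, 6 lay above (30%) and 5 below (25%), beside 19.4% and 33.7% over all genes tested (median 0.60). *Trp53inp1*, a stress-induced regulator of p53 and autophagy, fell from 658 and 542 to 166 and 150.4 CPM (-1.79 ± 0.25, range -1.98 to -1.58, adjusted p = 0.0362). The cell cycle inhibitor *Cdkn1a* was at 9.82 and 3.59 against 38.5 and 11.8 CPM (1.95 ± 0.64, adjusted p = 0.138).

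Oncofetal and liver tumor markers lay on both sides. Of 26, 10 lay above (38.5%) and 5 below (19.2%) both Ctrl mice, beside 19.4% and 33.7% over all genes tested (median 0.56). *Ly6d*, a lipid-anchored surface protein, rose from 1.01 and 2.25 CPM to 21.6 and 20.1 CPM, with 41.6 and 30 CPM in Pre-T mice (3.84 ± 0.41, range 3.41 to 4.45, adjusted p = 0.027). Alpha-fetoprotein (*Afp*) was at 1.37 and 2.29 CPM in Ctrl and 4.36 and 3.91 CPM in Post-T mice (1.32 ± 0.61, adjusted p = 0.231). *Gpc3*, glypican-3, lay below at 13.2 and 17.9 against 4.93 and 0.824 CPM (-2.37 ± 0.95, range -3.999 to -1.66, adjusted p = 0.184). *H19* and *Igf2*, imprinted neighbours expressed in fetal liver, were high in 1 Post-T mouse alone, *H19* at 1.42 and 112 CPM and *Igf2* at 0.189 and 16.6 CPM. *Robo1*, a receptor for Slit guidance proteins, was at 348 and 199 against 809 and 637 CPM (1.52 ± 0.43, range 1.12 to 2.05, adjusted p = 0.112). Without Post-T 1 the median of the list was -0.11.

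**Figure D3:**
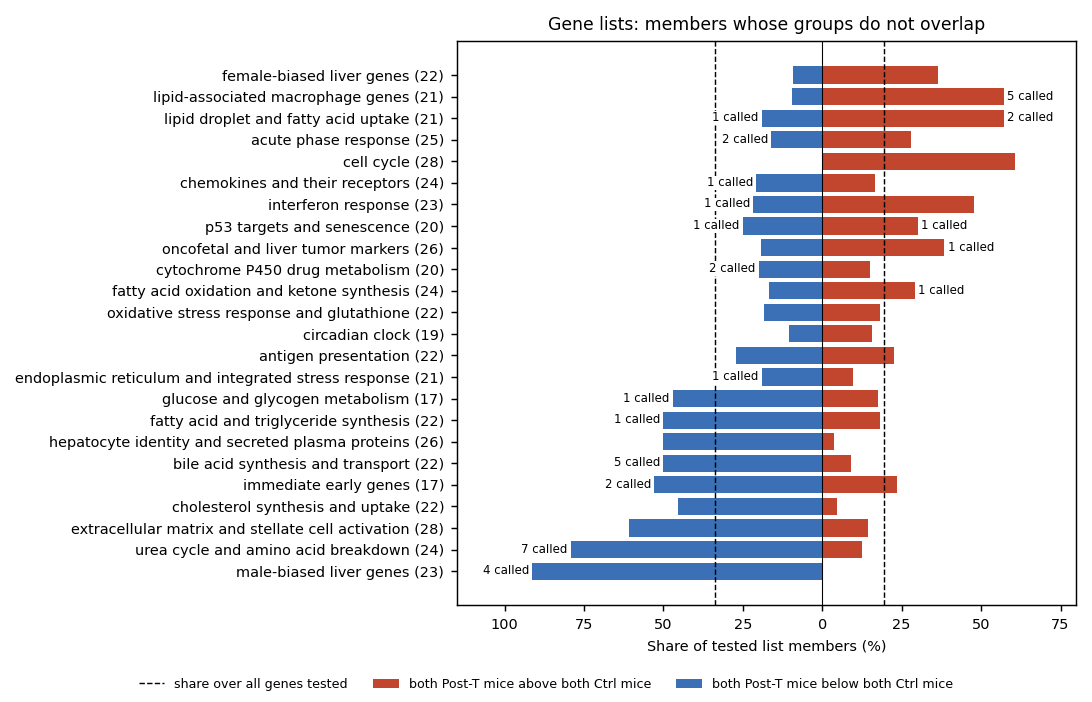
Share of the tested members of each of 24 gene lists (y axis, number tested in brackets) in which both Post-T mice lay above (red, to the right) or below (blue, to the left) both Ctrl mice, in percent (x axis), with the number of members called by edgeR beside the bar. Dashed lines mark the shares over all genes, 19.4% and 33.7%, and the bars reach 91.3% for male-biased genes on the left and 60.7% for cell cycle genes on the right.

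Most matrix genes lay lower in these sums. Of 28 genes of extracellular matrix and stellate cell activation, 17 lay below and 4 above both Ctrl mice (median -1.34), with no edgeR call (1 higher and 12 lower at an unadjusted p under 0.05, 11 lower by DESeq2). *Col14a1*, a fibril-associated collagen, was at 123 and 106 against 33.8 and 5.51 CPM (-2.51 ± 0.72, range -4.16 to -1.78, adjusted p = 0.112), and *Col1a1*, the main fibrillar collagen of scars, overlapped at 5.07 and 1.18 against 3.505 and 1.03 CPM. Markers of stellate cells and fibroblasts lay below in 11 of 12 (median -2.09). Their summed level was 1454 and 1921 CPM in Ctrl and 455 and 106 CPM in Post-T mice, and its part in the matrix genes was not tested. The basement membrane chains *Col4a1* and *Col4a2* lay above both Ctrl mice without a call, *Col4a1* at 84.1 and 31.8 against 88.9 and 93.7 CPM. The endothelial receptor *Flt1* rose from 62.98 and 69.1 to 217 and 176 CPM (1.70 ± 0.19, adjusted p = 0.0286), while the sum of 12 endothelial markers overlapped, with 1041 and 1143 CPM against 899 and 1728 CPM.

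Mesothelial cells line the surface of the liver, and all 7 of their markers lay below. 5 of them fell, among them *Gpm6a* from 48.8 and 43.6 to 7.29 and 5.92 CPM (-2.68 ± 0.30, adjusted p = 0.0281) and *Muc16* from 20.7 and 24.7 to 0.189 and 0.155 CPM (-6.87 ± 1.08, adjusted p = 0.0428). The list summed to 112 and 100.5 CPM in Ctrl and 12.98 and 6.64 CPM in Post-T mice. All 8 B cell markers lay below as well, and *Ms4a1*, CD20, fell from 5.19 and 8.45 to 1.14 and 1.18 CPM (-2.40 ± 0.39, adjusted p = 0.0438). In 10 T cell markers 7 lay below, with *Cd4* falling from 5.35 and 4.86 to 0.379 and 0.67 CPM (-3.12 ± 0.50, adjusted p = 0.0437), while *Themis* lay above at 13.7 and 34.3 against 86.7 and 101 CPM (2.14 ± 0.46, adjusted p = 0.0702). Of 10 cholangiocyte markers, 8 lay below, with no call by edgeR (4 at an unadjusted p under 0.05, 2 by DESeq2), and Post-T 2 was the lowest at a sum of 61.7 CPM against 384 and 366 CPM in Ctrl mice and 304 CPM in Post-T 1. The median of that list was -1.53, and -0.74 without Post-T 2. NK cell markers lay below in 7 of 8 and above in 1, without an edgeR call (4 lower at an unadjusted p under 0.05, 3 by DESeq2), and their sum was 11.8 and 11.6 CPM in Ctrl and 3.22 and 4.69 CPM in Post-T mice. Of 7 tested neutrophil markers 5 lay above, again without an edgeR call (4 higher at an unadjusted p under 0.05, 3 by DESeq2), with sums of 12.4 and 8.37 CPM against 30.7 and 21.2 CPM. Of 8 dendritic cell markers 6 lay below and 1 above (median -0.75), and of 7 tested plasma cell markers 5 below and 1 above (median -0.61). Of 9 monocyte markers 2 lay below (22.2%), 1 above (11.1%) and 6 overlapped (median 0.17). Both shares were smaller than the 33.7% below and 19.4% above over all genes tested. Of 8 markers of plasmacytoid dendritic cells 3 lay below (37.5%), 2 above (25%) and 3 overlapped (median 0.28), shares close to those of all genes. All 6 tested markers of basophils and mast cells overlapped. edgeR called no marker of these 5 lists (3 higher and 7 lower at an unadjusted p under 0.05, 3 and 6 by DESeq2). Erythroid markers summed to 306 and 151 CPM in Ctrl and 6832 and 713 CPM in Post-T mice, with 7 of 8 above both Ctrl mice and no edgeR call (7 higher at an unadjusted p under 0.05 and by DESeq2), and hemoglobin *Hbb-bs* at 98.5 and 31.6 against 2449.6 and 221 CPM. Pancreatic acinar markers were present in Ctrl 1, where 7 genes summed to 53.6 CPM, and came to 4.61 to 8.45 CPM in the other 3 mice.

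**Figure D4:**
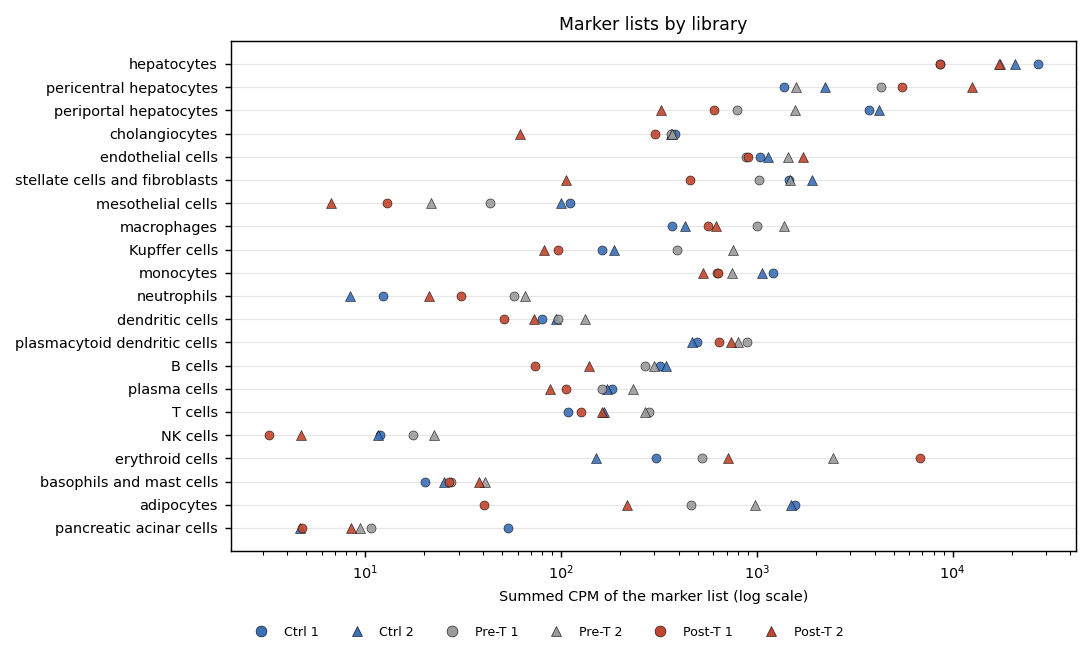
Summed CPM on a log scale (x axis) of the cell type marker lists (y axis), 1 point per mouse, with colours and shapes as for the called genes. Post-T mice lie below Ctrl mice for mesothelial cells (112 and 100.5 against 12.98 and 6.64 CPM), B cells, NK cells and stellate cells, and above them for pericentral hepatocytes, macrophages (369 and 428 against 564 and 618 CPM), neutrophils and erythroid cells.

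Lists of stress response, regulation, hepatocyte identity and drug metabolism are given beside the shares over all genes tested. These were 19.4% above, 33.7% below and 2.22% called by edgeR. Of 17 immediate early genes, 9 lay below and 4 above both Ctrl mice, and *Ier2*, a regulator of growth-factor responses, fell from 53.3 and 145 to 15.2 and 12.4 CPM (-2.69 ± 0.45, range -3.21 to -1.88, adjusted p = 0.0468) and *Dusp1*, a phosphatase of MAP kinases, from 78.5 and 97.8 to 28.1 and 16.6 CPM (-1.87 ± 0.29, range -2.18 to -1.65, adjusted p = 0.0428). Of 19 circadian genes, 3 lay above (15.8%) and 2 below (10.5%), both smaller shares than over all genes. None was called (2 higher and 1 lower at an unadjusted p under 0.05 and by DESeq2 alike). The Ctrl mice differed widely in this list, the output regulator *Dbp* at 1.17 and 60.8 CPM and the clock activator *Npas2* at 213 and 5.797 CPM. Of 22 oxidative stress and glutathione genes, 4 lay on either side (18.2% each), both smaller shares than over all genes. None was called (4 higher and 4 lower at an unadjusted p under 0.05, 3 and 4 by DESeq2), and *Cat*, catalase, was at 1041 and 893 against 215 and 333 CPM. Of 21 genes of the endoplasmic reticulum and integrated stress response, 2 lay above and 4 below (median -0.15), and *Asns*, described above, was the call. Among 26 genes of hepatocyte identity and plasma proteins, 13 lay below and 1 above both Ctrl mice, with no call (6 lower at an unadjusted p under 0.05, 5 by DESeq2), and *Alb* was at 8874 and 7192 CPM in Ctrl and 3449 and 6809 CPM in Post-T mice. Of 20 P450 enzymes and regulators of drug metabolism, 3 lay above (15%) and 4 below (20%) both Ctrl mice and 13 overlapped. Both shares were smaller than over all genes, and the median was 0.35, and -1.02 without Post-T 2. edgeR called none of them higher (3 at an unadjusted p under 0.05, 3 by DESeq2). Besides *Cyp2f2*, *Cyp2j5*, an epoxygenase of arachidonic acid, fell, from 766 and 554 to 89.2 and 28.4 CPM (-3.43 ± 0.55, range -4.33 to -2.91, adjusted p = 0.0437).

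The 2 Post-T livers were not alike. Over 7166 genes with a mean of at least 20 CPM, the Ctrl mice correlated with r = 0.950 and the Post-T mice with r = 0.821 (log2 CPM, across genes, which are not independent replicates). In 269 of these genes (3.75%) the Post-T mice were more than 4-fold apart, against 32 (0.447%) in Ctrl mice, and in 47 they were more than 16-fold apart, 39 higher in Post-T 1 and 8 higher in Post-T 2. *Meg3*, a long noncoding RNA of the imprinted cluster on chromosome 12, was at 139 and 58.99 CPM in Ctrl, 5.37 and 3.12 CPM in Pre-T and 40.2 and 1971 CPM in Post-T mice. *Rian* and *Mirg*, which lie downstream of it in the same cluster (chromosome 12, 109603940 to 109661716 and 109729764 to 109749460, plus strand), showed the same order, *Rian* at 29.7 and 13.5 against 7.53 and 263 CPM. *Cyp2a5*, a pericentral P450, was at 43.3 and 168 CPM in Ctrl and 91.9 and 1598 CPM in Post-T mice. These 4 genes and *H19* were high in Post-T 2. High in Post-T 1 and nearly absent in Post-T 2 were *Negr1*, a neuronal adhesion protein, at 673 and 0.258 CPM, the scaffold protein gene *Frmpd4* at 602 and 0.258 CPM, and *Cxcl13*, the chemokine that draws B cells, at 121 and 0 CPM. The metallothionein *Mt1* was at 64.3 and 218 CPM in Ctrl and 129 and 1.91 CPM in Post-T mice.

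**Figure D5:**
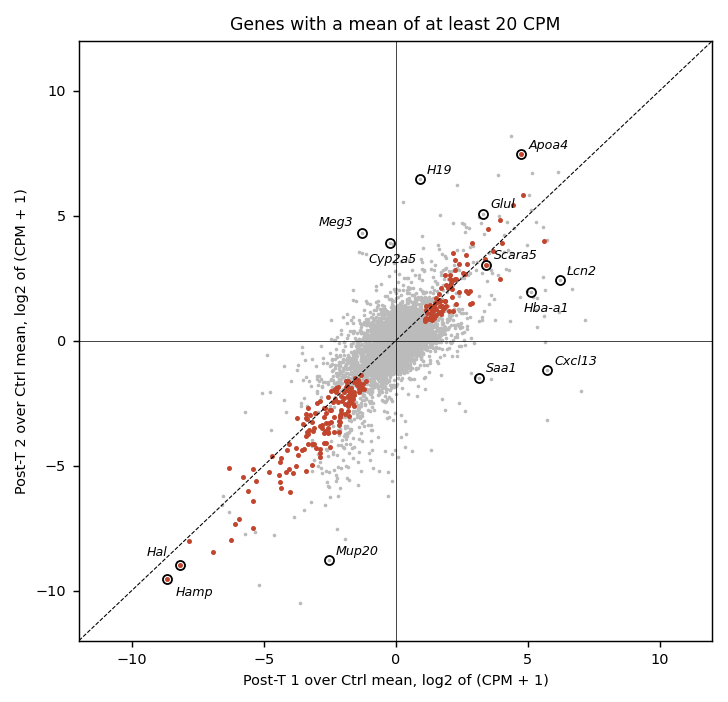
Log2 ratio of Post-T 1 (x axis) and Post-T 2 (y axis) to the Ctrl mean, with 1 CPM added, for the 7166 genes with a mean of at least 20 CPM over the 4 mice, 1 point per gene, with called genes in red, the diagonal dashed and some genes circled and named. *Meg3*, *H19* and *Cyp2a5* lie high in Post-T 2 only, whereas *Cxcl13*, *Saa1* and *Mup20* lie far lower in Post-T 2 than in Post-T 1.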

How the data were processed

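The deposited files hold UMI counts per gene and nucleus barcode (10x Genomics 3' libraries, Next GEM v3.1), which the authors made with Cell Ranger 6.1.1 and the mm10 genome, and whether intronic reads were counted is not given in the sources used here. Nuclei with more than 200 and under 5000 genes and under 5% mitochondrial UMIs were kept, as in the study, and doublets were not removed. Counts were summed per library and divided by the library's sum to give CPM, since 1 library is 1 mouse (n = 2 per group). edgeR 4.0.16 (R 4.3.3) fitted its quasi-likelihood model with TMM to all 6 libraries (3 groups, leaving 3 residual degrees of freedom), testing the 21790 genes that reached 10 counts in all, with Benjamini-Hochberg adjustment, and errors after ± are SE of log2 fold changes of Post-T over Ctrl. DESeq2 1.42.0 was an alternative. In simulated data of 21790 genes, changes of 2 or 3 (log2) were set in 100 genes each, drawn only from genes with higher counts. Of these changes 44% and 85% were recovered, with 6 false calls among the other genes. Recovery in genes of low counts was not examined.

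Comparison, members and gene lists (24 by role, 22 of cell type markers) were chosen with earlier results of these data known. Named genes were the 12 highest and 12 lowest called genes by fold change (mean of at least 20 CPM) and up to 4 members of at least 5 CPM per role list, called genes first, of which a few genes are not reported here. The members of the circadian and tumor lists could also be named. All other genes, such as *Glul*, *Arg1*, *Cps1*, *Meg3*, *Mt1* and the cell type markers, were named after their values were seen. Endothelial-marker nuclei (at least 3 UMIs and 0.5% of UMIs from 12 markers) were defined after seeing the data. Promoter windows are from RefSeq (GRCm38.p6) and gene positions from GENCODE (GRCm38). Other settings were another normalization (RLE or none), other gene filters, all barcodes, the 4 libraries alone, the replicate number as a block and leaving out each library.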

Additional observations from a re-analysis of the deposited data

Results flagged for a closer look

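By share of barcodes, the filter removed more in Post-T than in Ctrl libraries. Barcodes with 5% or more mitochondrial UMIs made up 6.37% in Post-T 1 and 4.19% in Post-T 2, against 0.583% and 0.221% in Ctrl mice. Over all criteria, 11.1% of barcodes were removed in Post-T 1 and 5.59% in Post-T 2, against 1.91% and 4.43% in Ctrl mice. Barcodes with 5000 or more genes made up 1.33% and 4.21% in Ctrl and 4.84% and 1.44% in Post-T libraries. The UMIs kept were 89.0% and 70.2% in Ctrl and 69.2% and 86.5% in Post-T libraries, so these 2 shares overlapped between the groups. With all barcodes kept, 243 genes rose and 517 fell, and 467 of the 483 called genes were among them.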

How the results depend on the processing

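The counts of genes without overlap stayed within 1.5 times their values with all barcodes, with TMM or RLE library sums, with equal weight per nucleus and with filterByExpr. The counts of calls did so with RLE (135 higher and 324 lower), filterByExpr (178 and 451) and no TMM (142 and 472), and did not under the settings that follow. At least 1 count per gene gave 334 genes that rose and 699 that fell, all barcodes 243 and 517, and DESeq2 1526 and 1692, with 3380 adjusted p missing. With the 4 libraries alone edgeR called 0 and 0 genes (4461 at an unadjusted p under 0.05), at 2 residual degrees of freedom. Leaving out 1 library gave 0 to 762 genes higher and 0 to 1006 lower, where the lone mouse of a group is assumed to vary like the others. The replicate block gave 0 higher and 1 lower gene (4883 at an unadjusted p under 0.05). The difference between replicates 1 and 2 correlated between Ctrl and Pre-T with r = -0.26. It was 0.02 between Ctrl and Post-T and 0.08 between Pre-T and Post-T (7207 genes). Genes are not independent replicates and each group gives 1 difference, so whether the numbers pair the mice cannot be decided. The 23 genes named for the largest changes kept their calls with DESeq2, and none kept it with the 4 libraries alone or with the block. Like those of all genes, their calls rested on both Ctrl mice and on the Pre-T mice that shared the estimate of the spread. 1 named gene reversed without Post-T 1, *Cxcl13* to a log2 fold change of -7.98 (6.54 without Post-T 2). The cause of these differences was not tested. With 2 mice per group, the spread within a group rests on few animals, which depth does not mend.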
